A study of Mus musculus with 2 samples.

Results

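Mir21a, Mir210, Mir34a, Mir34b and Mir34c, the stress-linked microRNA genes of the mouse, were read in whole newborn kidneys. The genes were chosen by name, for their known ties to tissue injury, hypoxia and the p53 response, and not by a rule on their values, though earlier results of these data were known when they were chosen. All 5 have a row among the 1973 microRNA genes of the tables. The samples were the kidneys of 2 pups of strain B6NCrl on postnatal day 0. Each sample pooled the 2 kidneys of 1 pup, and the labels put both pups under the same pregnancy, so there was 1 group of 2 biological replicates and no treated, mutant or older group. The labels name no treatment or engineered allele, and sex was not collected. Small RNA was sequenced from total RNA, and a count is a read assigned to the strand of a microRNA hairpin gene. Values are CPM, the count of a gene divided by the library's total over all named genes and multiplied by 1000000, and errors are SD with n = 2 pups unless stated.

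A microRNA is cut from a hairpin precursor into a short mature strand that guides Argonaute to messenger RNAs, mainly by pairing of its seed near the 5′ end, and lowers their translation and stability. miR-21 is known from injured and fibrotic tissue, the kidney included, where it represses growth suppressors such as Pdcd4. miR-210 is the microRNA most regularly induced by the hypoxia-inducible factors, and represses mitochondrial proteins such as the iron-sulphur scaffold Iscu. The miR-34 genes are transcriptional targets of p53 and repress cell cycle and survival genes such as Met, Ccne2 and Bcl2. The pair miR-34b and miR-34c is also known from multiciliated cells, together with the related miR-449.

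The mature sequences, given here because microRNAs with a common seed can pair with the same sites, came from RefSeq on GRCm38.p6, and capitals mark the seed, bases 2 to 8 from the 5′ end.
miR-21a-5p: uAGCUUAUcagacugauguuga
miR-21c: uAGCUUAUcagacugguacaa
miR-210-3p: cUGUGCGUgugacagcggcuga
miR-34a-5p: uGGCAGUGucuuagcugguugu
miR-34b-5p: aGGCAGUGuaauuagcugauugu
miR-449a-5p: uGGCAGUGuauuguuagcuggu
miR-34b-3p: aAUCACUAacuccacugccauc
miR-34c-3p: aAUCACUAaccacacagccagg
The table held 9 mature sequences over the 5 genes. Mir34c belongs to the miR-34 family with Mir34a and Mir34b. The sequence of miR-34c-5p was not among them, so its seed was not compared. Its absence from the groups that follow says nothing about its seed. miR-34a-5p, miR-34b-5p, miR-449a-5p and miR-449c-5p had the same seed. The 3p arms of Mir34b and Mir34c shared another, and were identical at 17 of 22 positions. miR-210-3p had a seed found in no other mature sequence of the table. The mature sequences compared cover only 916 of the 1973 genes. Among them, miR-21a-5p shared its seed only with miR-21c, and the pair matched at 16 of the 21 positions compared. Genes without a sequence were not compared.

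In the annotation on mm10, Mir21a (ENSMUSG00000065455.1) spans 86584067 to 86584158 on chromosome 11, minus strand, within the 3′ untranslated region of Vmp1, an autophagy gene read on the same strand. Mir210 (ENSMUSG00000065551.1) spans 141221384 to 141221493 on chromosome 7, minus strand, between Rassf7 and Phrf1 and within no annotated gene. Mir34a (ENSMUSG00000065493.1) spans 150068454 to 150068555 on chromosome 4, plus strand, and its last 17 bases overlap the exon of Gm37795, a transcript of the annotation's class TEC, for loci that still need experimental evidence. Mir34b (ENSMUSG00000065492.1, chromosome 9, 51103562 to 51103645) and Mir34c (ENSMUSG00000065587.1, chromosome 9, 51103034 to 51103110) are 451 bases apart on the minus strand. Both lie opposite an intron of Btg4, which is read from the plus strand. No stretch of 18 bases of these 5 hairpins occurs in a microRNA hairpin of another place, while 969 of the genes in the tables share such a stretch. Sequence outside microRNA hairpins is not considered here.

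Depth was 5832192 counts in pup 1 and 3846704 counts in pup 2, which were 58.2% and 57.4% of all reads. Multimapping reads, 30.3% and 31.0%, are listed apart from gene counts. The kidney label was checked on 6 epithelial microRNA genes, all of which reached 10 CPM in both pups and held 4.93% and 4.71% of counts. Most of that was Mir30a (2.24% and 1.98%), Mir429 (1.72% in both pups) and Mir200b (0.857% and 0.889%). Mir192, Mir194-2 and Mir204 held 0.0524%, 0.0309% and 0.0358% in pup 1, and 0.0602%, 0.0283% and 0.0399% in pup 2. The Hox microRNAs of the trunk held 25.1% and 24.1%. Mir124a-1, Mir124a-2, Mir124a-3, Mir1a-1 and Mir133a-1 of nerve and muscle stood at 0 in both pups, though these 5 genes have near-identical copies whose reads can be listed as multimapping. Of the other markers of nerve and striated muscle, Mir206 had 30 counts in pup 1 and 17 in pup 2, or 5.14 and 4.42 CPM. Mir9-2 had 0 counts in pup 1 and 1 in pup 2, and has the same limit, since it shares 18 bases with another hairpin. Some markers of other organs were present, the liver marker Mir122 at 56.9 CPM in pup 1 and 44.2 CPM in pup 2. The endocrine marker Mir375 stood at 117 and 141 CPM. In whole tissue, fewer cells of a type and less microRNA per cell cannot be told apart.

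Mir21a dominated the group. It had 79407 counts in pup 1 and 46177 in pup 2, or 13615 and 12004 CPM, with 95% Poisson intervals of 13521 to 13710 and 11895 to 12114 CPM that cover counting error only. Its mean of 12809.8 ± 1139 CPM was 1.28% of all counts, rank 18 of 1973 genes, and it was above 96.6% of the 526 genes that had a count in both pups. The other 4 genes lay far below it. The median of those 526 genes was 8.06 CPM, and Mir34c, Mir210 and Mir34a were above 81.4%, 79.8% and 78.9% of them and Mir34b above 58.9%. Together the 5 genes held 1.48% of counts in pup 1 and 1.32% in pup 2, and Mir21a supplied 91.7% and 90.7% of that.

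Mir34c came next with 3393 and 1906 counts, or 582 CPM in pup 1 and 495 CPM in pup 2 (intervals 562 to 602 and 473 to 518). Its mean was 539 ± 61.0 CPM at rank 98. Mir210 had 1779 and 1528 counts, or 305 CPM in pup 1 and 397 CPM in pup 2 (intervals 291 to 320 and 378 to 418), with a mean of 351 ± 65.2 CPM at rank 106. The intervals of the pups did not overlap for Mir21a, Mir34c or Mir210. The share of other genes whose intervals were apart was not computed, so these gaps cannot be called unusual. Differences beyond counting error were common, however. In the exact binomial test given below, a different measure from interval overlap, 33.6% of the 324 tested genes passed. Of the 217 whose mean count reached 100, 49.3% passed. Mir34a had 1883 and 1228 counts, which is 323 CPM in pup 1 and 319 CPM in pup 2 (intervals 308 to 338 and 302 to 338). Its mean of 321 ± 2.57 CPM at rank 111 had an SD of 0.799% of the mean, against a median of 7.34% over the tested genes. That SD is narrower than the counting interval of either pup, so it does not show a steadier gene. Of the tested genes, 15.1% had a smaller absolute log2 ratio between the pups. Mir34b was the lowest, with 133 and 91 counts, or 22.8 CPM in pup 1 and 23.7 CPM in pup 2 (intervals 19.1 to 27.0 and 19.0 to 29.0), and a mean of 23.2 ± 0.603 CPM at rank 216. For Mir34a and Mir34b the intervals of the pups overlapped.

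**Figure D1:**
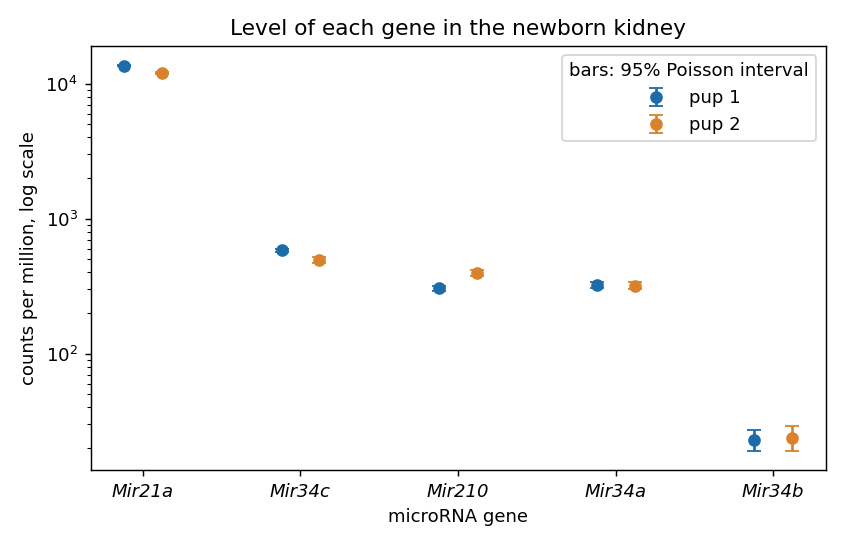
CPM (log axis) of Mir21a, Mir34c, Mir210, Mir34a and Mir34b in pup 1 (left, blue) and pup 2 (right, orange), with 95% Poisson intervals as bars. Mir21a stands at 13615 and 12004, while Mir34b stands at 22.8 and 23.7, and Mir210 is below Mir34a in pup 1 and above it in pup 2.

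The order Mir21a, Mir34c, then Mir210 and Mir34a, then Mir34b held in both pups, except that the middle pair changed places. Mir210 had 0.945 times the counts of Mir34a in pup 1 (95% exact interval 0.885 to 1.01) and 1.24 times in pup 2 (1.15 to 1.34), so these neighbours were not separated by 2 pups. Mir34c exceeded Mir210 in both pups, 1.91-fold in pup 1 and 1.25-fold in pup 2, and the gap between their means was larger than the SD of either. Mir34c also exceeded Mir34a 1.80-fold in pup 1 and 1.55-fold in pup 2. Mir21a stood 23.4-fold and 24.2-fold above Mir34c, an almost equal distance in both pups, but 44.6-fold and 30.2-fold above Mir210. Levels here are reads per hairpin, and the hairpins differ in length from 77 to 110 bases. The labels give the RNA an upper size of 30, and the mature sequences had 21 to 23 bases. Reads therefore need not spread over a hairpin, and division by its length is another scale and not a correction. Per 100 bases of hairpin, the levels were 14799 and 13048 CPM for Mir21a, 756 and 643 for Mir34c, 277 and 361 for Mir210, 317 and 313 for Mir34a, and 27.1 and 28.2 for Mir34b, in the same order within each pup. How many reads a molecule of each sequence yields was not measured.

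**Figure D2:**
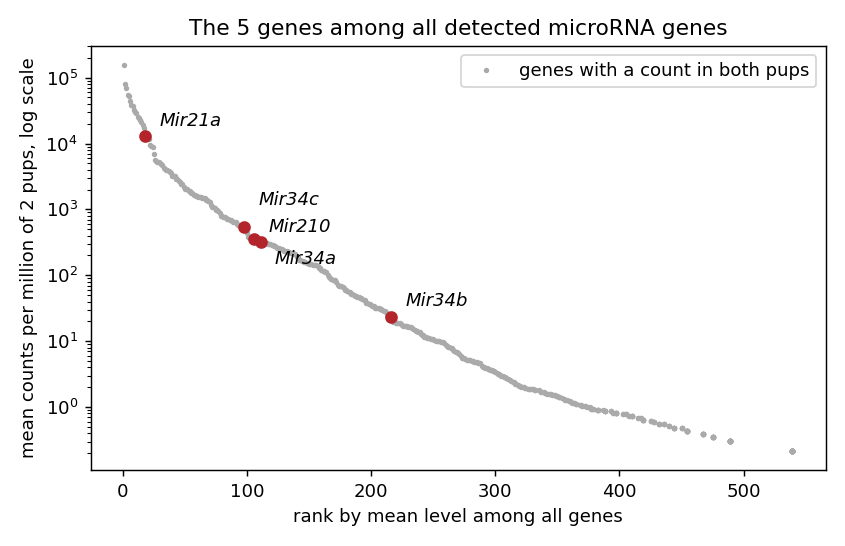
Mean CPM of 2 pups (log axis) against rank, for the 526 genes with a count in both pups (grey) and the 5 stress-linked genes (red). Mir21a lies in the steep upper end at rank 18, Mir34c, Mir210 and Mir34a lie close together at ranks 98, 106 and 111, and Mir34b lies at rank 216.

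The genes nearest to each in mean level were mostly not separable from it. With 2 samples no likeness of pattern can be measured, so level was the measure used. Mir21a lay below Mir429 (17174 ± 27.8 CPM), an epithelial miR-200 family gene that was higher in both pups by more than either SD, and above Mirlet7d (12379 ± 51.5 CPM), and it exceeded Mirlet7d in pup 1 and not in pup 2. Mir34c lay between Mir320 (542 ± 9.54 CPM) and Mir541 (519.9 ± 0.694 CPM), with the order against each turned in 1 of the pups. Mir210 lay between Mir374b (356 ± 33.2 CPM) and Mir369 (351 ± 81.5 CPM), and Mir34a between Mir132 (330.1 ± 6.34 CPM) and Mir431 (321 ± 64.2 CPM). Mir132 stayed above Mir34a in both pups, and the gap between their means was larger than either SD. In pup 1, however, they stood at 325.6 and 322.9 CPM, a gap smaller than the SD of Mir132. Mir34b had Mir665 (23.4 ± 1.10 CPM) next above and Mir26a-1 (22.8 CPM in pup 1 and 22.1 CPM in pup 2) next below. A place further out, Mir17 and Mir22 around Mir21a, Mir1983 below Mir34c and Mir452 below Mir34b kept their side in both pups. For these the gap between the means was larger than either SD, though not always within a pup. Counting error was not part of that comparison, and Mir452 had 122 and 72 counts against 133 and 91 for Mir34b. In pup 2, Mir21a had 12004 CPM and Mir22 had 11784 CPM. Mir467c, Mir186, Mir483, Mir339, Mir27a and Mir346 did not keep their side.

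Within the Mir34 genes, Mir34c supplied most reads. It held 62.7% of their joint counts in pup 1 and 59.1% in pup 2, Mir34a held 34.8% and 38.1%, and Mir34b held 2.46% and 2.82%. Their sum was 927 CPM in pup 1 and 838 CPM in pup 2. Mir34c had 25.5 times the counts of its neighbour Mir34b in pup 1 (95% exact interval 21.4 to 30.6) and 20.9 times in pup 2 (17.0 to 26.1), although the pair is known to come from a common primary transcript. The intervals of the pups overlapped.

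That gap was set beside all pairs of microRNA hairpins that neighbour each other on 1 strand within 10000 bases, with a mean count of at least 10 for both genes. Of 102 such pairs, 28 had a larger log2 ratio of the higher over the lower hairpin than the 4.52 of Mir34c over Mir34b, which is 27.5% of pairs. The median was 2.58, and the pairs ran from 0.03 to 9.51. Many pairs with larger gaps include a hairpin with copies, such as Mir19b-1 and Mir181b-1, whose reads can be listed as multimapping. Among the 64 pairs in which no hairpin shares 18 bases with a hairpin of another place, 12 had a larger log2 ratio, 18.8% of pairs, and the median was 2.09. Unequal counts within a pair were thus common in these kidneys, and the Mir34 pair lay in the upper part of the range. These pairs are not independent replicates, and no test was made.

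**Figure D3:**
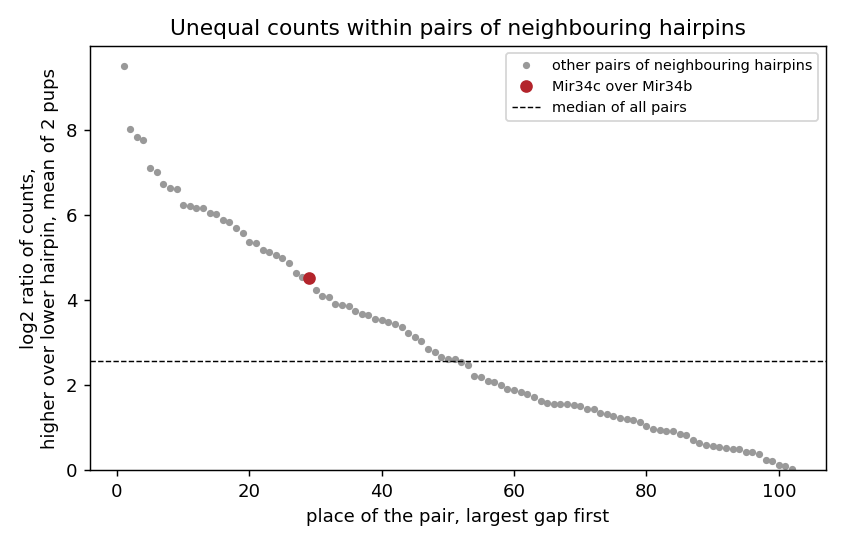
Log2 ratio of counts of the higher over the lower hairpin, mean of 2 pups, for 102 pairs of neighbouring hairpins in order of size (grey), with Mir34c over Mir34b in red and the median of 2.58 as a dashed line. The Mir34 pair is at place 29, with a value of 4.52.

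Mir449a, the hairpin of miR-449a-5p, had 218 counts in pup 1 and 143 in pup 2, or 37.4 and 37.2 CPM (mean 37.3 ± 0.144). Mir449b and Mir449c had 0 counts in both pups, which allows up to 3 counts, or 0.514 CPM in pup 1 and 0.780 CPM in pup 2. Mir449a was higher than Mir34b, which had 0.610 and 0.636 times its counts, and lower than Mir34a, which had 8.64 and 8.59 times. Mir449a made up 3.87% and 4.25% of the joint counts of the Mir34 genes and itself. A count belongs to a hairpin, so how far each arm contributed was not measured. The multiciliated cell markers were Mir449a, Mir449b and Mir449c, of which 1 of 3 reached 10 CPM, and their part in the Mir34b and Mir34c levels was not tested.

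Mir21c, the hairpin of miR-21c, and Mir21b also had 0 counts in both pups. Among genes with a mature sequence here, Mir21a was therefore the only one with counted reads that had the seed of miR-21a-5p. Reads on the strand opposite to the hairpins were nearly absent, with at most 2 for any of the 5 genes in either pup.

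Between the pups, Mir21a and Mir34c were higher in pup 1 and Mir210 was higher in pup 2. An exact binomial test compared the 2 libraries given their effective sizes, so it speaks of these reads and not of conditions, and it knows counting error only. The log2 ratio of pup 1 over pup 2 was 0.20 for Mir21a (95% counting interval 0.19 to 0.22, Benjamini-Hochberg adjusted p = 2.55e-127 by the exact binomial test). It was 0.25 for Mir34c (0.17 to 0.33, adjusted p = 5.03e-09 by the same exact test). For Mir210 it was -0.36 (-0.46 to -0.26, adjusted p = 7.64e-12 by the same exact test). Mir34a (0.04, interval -0.07 to 0.14) and Mir34b (-0.03, interval -0.43 to 0.37) did not pass, with adjusted p of 0.680 and 0.957 in the exact test. The wide interval of Mir34b rests on 224 reads in all, and includes the ratio of Mir210.

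In all, 3 of the 5 genes passed, against 33.6% of the 324 genes tested, and 2 were higher in pup 1, against 21.0%, and 1 was lower in pup 1, against 12.7%. All 5 have a mean count of at least 100. Of the 217 genes past that minimum 107 passed (49.3%), 68 of them as higher in pup 1. At high counts the test also passes very small ratios, such as that of Mir429 (100046 and 66138 counts, 0.02). Over all 324 tested genes, 115 had a larger absolute log2 ratio than Mir21a, 81 than Mir34c and 55 than Mir210. The median absolute log2 ratio was 0.15 and the 90th percentile was 0.46. Some of the larger ratios rest on few counts, such as Mir7b (13 and 28 counts, -1.66) and Mir135a-1 (7 and 15 counts, -1.63). Others rest on many, such as Mir181b-2 (3967 and 1778 counts, 0.58). The 3 ratios were not ranked against well-counted genes alone, so their size beside genes of similar depth was not tested. The median log2 ratio of all tested genes was 0.04. With the spread between the pups taken into account through edgeR's common dispersion, a biological coefficient of variation of 9.25%, the edgeR exact test passed 1 of 324 genes (0.309%) and none of the 5, with an adjusted p of 1 for each and unadjusted p in the edgeR exact test from 0.0665 for Mir210 to 0.961 for Mir34b. At an unadjusted p under 0.05 that test gave 14 genes. The dispersion came from the same difference between the pups.

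**Figure D4:**
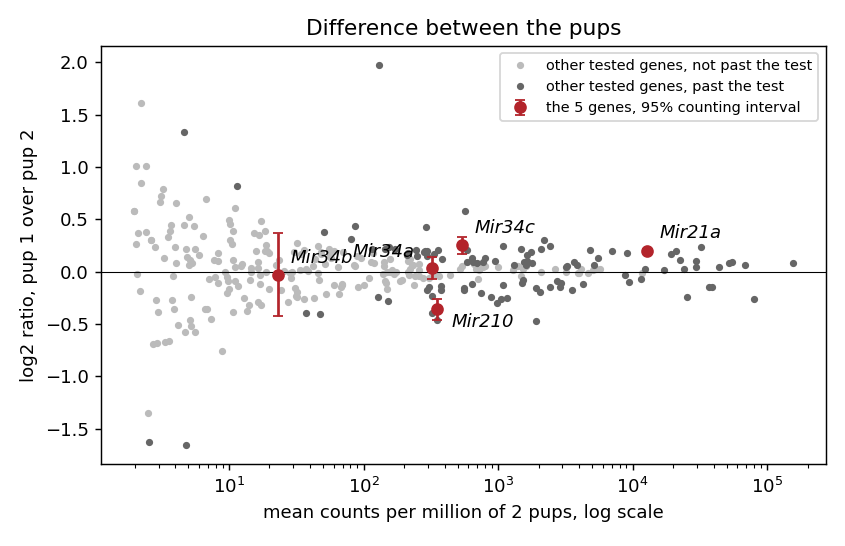
Log2 ratio of pup 1 over pup 2 against mean CPM (log axis) for 324 tested genes, dark grey where past the exact binomial test, with the 5 stress-linked genes in red and their 95% counting intervals as bars. Mir21a at 0.20 and Mir34c at 0.25 lie above the line of no difference, Mir210 at -0.36 lies below it, and all lie within the cloud of other genes.

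Markers of other cells also differed between these libraries. Red blood cell genes (Mir451a, Mir144, Mir486) summed to 0.0241% in pup 1 and 0.00988% in pup 2, with Mir451a at a log2 ratio of 1.98 and Mir144 at -0.39. The leukocyte genes Mir223, Mir150 and Mir155 held 0.0611% in pup 1 and 0.0561% in pup 2, and 1 of 3 passed as higher in pup 1. The endothelial gene Mir126a held 7.20% in pup 1 and 8.72% in pup 2, and Mir143 and Mir145a of smooth muscle 3.59% and 4.02%. The liver marker Mir122 was higher in pup 1 at a log2 ratio of 0.38, and the endocrine marker Mir375 was lower at -0.24 (adjusted p = 0.0169 and 0.0159 by the exact binomial test). Over all tested genes 33.6% passed that test, and 49.3% of those with a mean count of at least 100. Mir216a and Mir217, also listed for pancreas and endocrine cells, were not tested. Mir216a had 0 counts in both pups, and Mir217 had 5 in pup 1 and 3 in pup 2. Of these markers, only Mir451a passed the edgeR exact test with the common dispersion. The part of these cells in the differences of Mir21a, Mir34c and Mir210 was not tested.

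Other microRNAs tied to the same stresses were read from 3 lists. The kidney injury list held 18 other genes, of which 12 reached 10 CPM in both pups, and Mir21a stood above all 18 in both pups. Next came Mir214, raised in fibrotic kidney, at 4141 ± 15.1 CPM, Mir18 of the miR-17 cluster at 2639 ± 9.51 CPM and Mir192 of the proximal tubule at 563 ± 54.8 CPM. Mir132 had 330.1 ± 6.34 CPM, and the inflammation-linked Mir223, Mir155 and Mir146 had 298 ± 26.1, 257 ± 6.83 and 118 ± 9.16 CPM. Of 13 tested genes, 1 passed as higher in pup 1 (Mir223, log2 ratio 0.20) and 1 as lower (Mir192, -0.18), with a median log2 ratio of 0.08, against 33.6% called and a median of 0.04 over all 324 genes. In the edgeR exact test with the common dispersion, no gene of this list or of the hypoxia and p53 lists passed, and each gene that passed the binomial test had an adjusted p of 1 in it. Mir687 had 0 counts in both pups and Mir489 had 2 counts in pup 1 and 0 in pup 2. Both have been linked to hypoxia or ischaemia of the kidney.

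The hypoxia list, mostly from human cells, held 14 other genes, of which 10 reached 10 CPM in both pups. Mir210 was below 5 of them and above 9 in both pups. The 5 were Mir322 (43791 ± 436 CPM), Mir26b (29711 ± 1226 CPM), Mir23b (24272 ± 65.8 CPM), Mir23a (11573 ± 485 CPM) and Mir107 (1763 ± 148 CPM). Of 12 tested genes, 4 passed as higher in pup 1 (Mir107 at 0.19, Mir26b at 0.11, Mir322 at 0.04 and Mir23b at 0.03) and 2 as lower (Mir27a at -0.23 and Mir23a at -0.06), with a median log2 ratio of 0.06, against 33.6% called over all tested genes and 49.3% over those with a mean count of at least 100.

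The p53 list held 14 other genes, of which 13 have a row and 9 reached 10 CPM in both pups. Mir605 was not analysed here. Mir34c had 6 of the 13 above it and 6 below it in both pups, Mir34a 7 above and 6 below, and Mir34b 9 above and 4 below. The highest were Mir143 (36917 ± 2966 CPM), Mir15a (4283 ± 297 CPM), Mir200c (3671 ± 128 CPM) and Mir16-1 (2731 ± 141 CPM). Of 11 tested genes, 3 passed as higher in pup 1 (Mir107, Mir194-2 at 0.15 and Mir200c at 0.09) and 5 as lower (Mir192, Mir143 at -0.14, Mir145a at -0.12, Mir15a at -0.12 and Mir16-1 at -0.08), with a median log2 ratio of 0.03, beside the same 33.6% and 49.3%. Several listed genes, among them Mir107, Mir23a, Mir23b, Mir27a, Mir16-1, Mir194-2 and Mir146, share 18 bases with another hairpin, so their levels leave out any reads listed as multimapping.

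**Figure D5:**
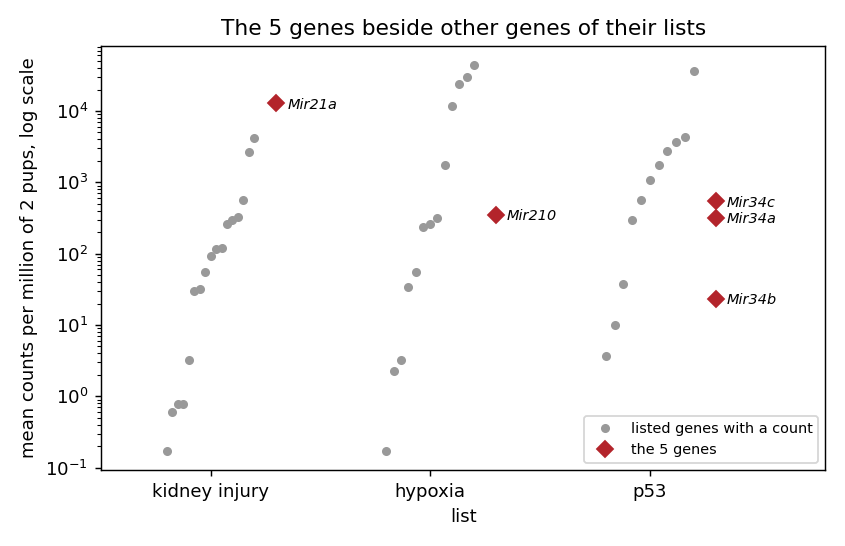
Mean CPM of 2 pups (log axis) for the listed kidney injury, hypoxia and p53 genes with a count (grey, each list in rising order) and for the 5 stress-linked genes beside their list (red diamonds). Mir21a lies above every gene of its list, while Mir210, Mir34c, Mir34a and Mir34b lie within the range of theirs.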

How the data were processed

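Per the deposited notes, the authors aligned reads to mm10 and counted them over annotation M4. For the aligner, its settings and read filters, nothing is given in the sources used here. The deposited tables hold whole-number counts per gene in 3 columns without a header. The column for the gene's own strand was used, read from the values, and the leading rows without a gene were kept out of totals (multimapping, unmapped and unassigned reads, 41.8% and 42.6% of reads in pup 1 and pup 2). Identifiers were matched without version to GENCODE M21 on the same assembly, with 1894 of 1973 genes and all 5 named genes found. Mir18a of the injury list was matched as Mir18 through RefSeq synonyms.

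CPM used the total over named genes. The libraries were compared, over genes whose mean count reached 10, by an exact two-sided binomial test given TMM effective library sizes (edgeR 4.0.16), with Benjamini-Hochberg adjustment over all 324 genes, a threshold of 0.05 and a prior count of 0.5 for log2 ratios, after a check on simulated counts. The test calls genes where counting error alone is exceeded, since 1 library on each side leaves no residual degrees of freedom for a quasi-likelihood fit. Python 3.11.15, scipy 1.17.1, R 4.3.3 and DESeq2 1.42.0 were used. Genes named are the 5, genes sharing a seed, the 2 nearest on each side in level, neighbouring hairpins, listed genes and cell type markers; other pairs and places were chosen after their values were seen. The members and lists were chosen with earlier results of these data known. Intervals and the 3-count floor cover counting error only: without molecular identifiers, reads are not independent molecules.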

Additional observations from a re-analysis of the deposited data

How the results depend on the processing

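Of 183 values recomputed under alternatives, 151 kept their direction and their side of the threshold. They also kept a size within 1 SD, or within 1.5 times for a count. The 151 include levels, ratios and seed sums with a pup left out, which cannot fail. With n = 2, the value of either pup always lies within 1 SD of the mean. Some seed sums also repeat the same value for both arms of a hairpin, so the 151 do not measure robustness. With all reads of a library as the total, levels were 7410 CPM for Mir21a, 203 for Mir210, 186 for Mir34a, 13.4 for Mir34b and 312 for Mir34c. Without the most abundant gene in the total, Mir21a had 15153 CPM at rank 17, Mir34a 379.7, Mir34b 27.5 at rank 215 and Mir34c 637 CPM. Counts on either strand put Mir34a at 315 CPM and rank 119, Mir34b at rank 225 and Mir34c at rank 102. These shifts come from the total and from the genes ranked. Leaving out either pup moved the rank of Mir21a between 18 and 19, of Mir210 between 104 and 115, of Mir34c between 95 and 98, and gave Mir34b 215 and 215. Division by hairpin length was chosen after seeing the data and is another scale, not a correction. It gave ratios of 19.9 for Mir21a over Mir34c, 44.2 for Mir21a over Mir34a and 2.25 for Mir34c over Mir210. The ratios were 2.22 for Mir34c over Mir34a, 11.5 for Mir210 over Mir34b and 11.4 for Mir34a over Mir34b. With pairs that share a stretch left out, also chosen after seeing the data, 12 hairpin pairs had a larger gap than Mir34c over Mir34b. The edgeR exact test with the common dispersion passed 1 gene against 109, and 0 of the 5 genes against 3. Under the 5 alternatives that kept the binomial test, Mir21a, Mir210 and Mir34c passed and Mir34a and Mir34b did not, with log2 ratios from 0.18 to 0.20, from -0.38 to -0.36, from 0.23 to 0.25, from 0.02 to 0.04 and from -0.06 to -0.03 for Mir21a, Mir210, Mir34c, Mir34a and Mir34b. Mir34b has 224 reads in all, which limits its ratios. No paired analysis was possible because the samples form 1 group.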
